A study of Mus musculus with 60 samples.

Results

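The comparison described here is the step from day 2 to day 4 of adipocyte differentiation in the population labelled 23-CATA, a derivative of C3H10T1/2, a mouse mesenchymal cell line that can turn into fat, bone or cartilage cells. It rests on 6 of the series' 60 RNA-seq libraries, 3 taken at day 2 and 3 at day 4, chosen by their labels alone. From a day after confluence the cells were held for 48 h in medium with 10% fetal bovine serum, 1 µM dexamethasone (a synthetic glucocorticoid), 0.5 mM IBMX (an inhibitor of phosphodiesterases that raises cAMP), 10 µg/ml insulin, 1 µM rosiglitazone (a drug that activates the nuclear receptor PPARG) and 1 nM T3 (thyroid hormone), after which only 10% serum and 5 µg/ml insulin were supplied. Day 2 is therefore the end of the cocktail and day 4 lies 48 h into the medium without it. All 3 populations of the expression table, 23-CATA, 23-NC and 23-Tet1, received the same media, and the labels do not explain these names, whether a population is a clone, or whether replicates were separate cultures. For 11 of the 12 libraries titled 23-Tet1 the genotype tag carries a different number from the title; they were grouped by title, and every 23-Tet1 value below rests on that. P-values accordingly measure the spread between these libraries, which may be technical, and none of the libraries used here was kept on the cocktail to day 4, so that withdrawal and the passing of 48 h cannot be told apart.

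Adipogenesis in culture runs as a relay. Glucocorticoid and cAMP signals induce the transcription factors CEBPB and CEBPD, which switch on PPARG and CEBPA, and these sustain each other and turn on the genes for lipid uptake, storage and secreted adipokines. Cells also leave the cell cycle and remodel their matrix as they fill with lipid, and thyroid hormone and PPARG agonists favour the mitochondrial genes of brown and beige fat. TET1 is a dioxygenase that oxidises 5-methylcytosine, and the series is about its part in this process.

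Each of the 6 libraries was estimated to hold 12 to 14.3 M fragments (M, 1e6), taking the spacing of low FPKM in genes with a single transcript as 1 fragment. Correlation of log2(FPKM + 1) was 0.991 to 0.996 between libraries of a day and 0.956 to 0.972 between days. Of 12231 genes tested with limma, 20% rose and 43.2% fell at a Benjamini-Hochberg adjusted p under 0.05. At that threshold, 4.27% of all genes rose and 1.33% fell by 1 log2 unit or more relative to the median gene. The median gene moved by -0.15 log2 units, so changes of genes and lists in the deposited values are given relative to that median (log2 of FPKM + 1, ± standard error of the fit). Calls were made on the values as fitted. Changes quoted under another scaling are as fitted too, with no median subtracted, so they are not on the same footing. The log2(FPKM + 1) scale understates changes of genes at a few FPKM. The split depended on scaling: of the called genes, 31.7% were higher at day 4 in the deposited values, 44.2% with quantile normalisation, 54.3% under median-ratio scaling and 54% once the trend with transcript length was removed. That trend was strong in 23-CATA (Spearman rho -0.408 over 12102 genes, against -0.0837 in 23-NC and -0.0173 in 23-Tet1, a description across genes). Split by length into 5 equal bins, genes had a median change, as fitted, of 0.1 in the shortest bin and -0.41 in the longest, where 70% fell and 6.53% rose. The day 4 libraries stood lower in the longest bin, at median deviations of -0.42, -0.35 and -0.64 against 0, -0.1 and -0.05 at day 2. Transcript length therefore moved with the day. RNA quality was not measured here, and its part in the falls was not tested. For the 23-CATA step, counts under another scaling stand beside a list where a count of 4 or more moved by over 1.5 times. The 20% and 43.2% of all genes hold for the deposited values and not for those counts. Of the 12231 genes, 3069 rose and 3879 fell with quantile normalisation, and 3932 and 3312 under median-ratio scaling. With the length trend removed, 3816 of 12102 rose and 3248 fell.

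**Figure D1:**
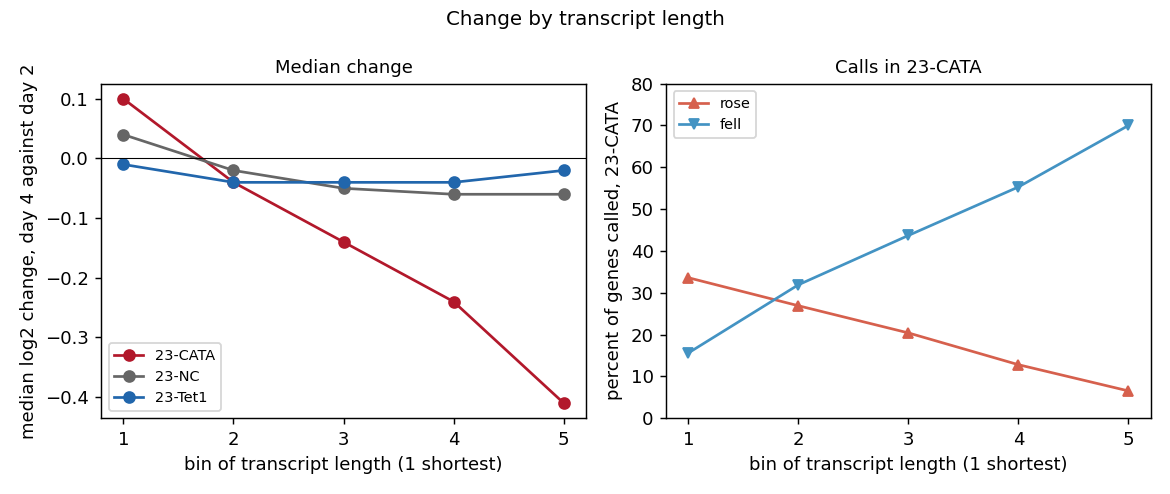
The left panel plots the median log2 change from day 2 to day 4, as fitted, against 5 bins of transcript length, from shortest to longest, for the 3 populations, and the right panel the percentage of genes that rose or fell in 23-CATA. The 23-CATA line drops from 0.1 to -0.41 while the other two stay near 0, and the share that fell climbs from 15.6% to 70%.

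Adipocyte markers rose together. All 13 of 13 defining markers rose, with a median of 1.24. Their summed FPKM was 31300 to 34800 at day 2 and 69900 to 77000 at day 4. Most of it was Fabp4, at means of 26900 and 58600. At day 2, 12 of the 13 had a mean of 1 FPKM or more, and at day 4 all 13 did. Of 12 macrophage markers, 6 (Ptprc, Adgre1, Tyrobp, Fcer1g, Aif1 and Mrc1) were listed at 0 in all day 4 libraries and 2 of these (Tyrobp and Mrc1) also at day 2; all 12 summed to 26.4-29.7 FPKM at day 2 and 54.8-62 at day 4, nearly all of it Cd68, a lysosomal protein that other cells also make. Endothelial markers summed to 3.99-4.74 and 5.47-7.07 FPKM, with Cdh5, Kdr, Tie1, Emcn and Cldn5 listed at 0 in all 6 libraries and Erg in those of day 4. In bulk RNA, more cells of a type and more RNA per cell cannot be told apart.

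Before the values, the upstream sequence of 8 genes from 5 of the lists is shown, since genes of these lists are known to share short promoter motifs. The 8 shown all carry their motif, whereas most PPARG target and mitosis genes with an upstream sequence do not, as counted below. Each is the 250 bases before a RefSeq transcription start (GRCm38.p6), written along the gene's strand with matches to the named motif, on either strand, in capitals. Aqp7 and Plin5 have 2 listed starts, and for each a start with the most matches was chosen. Aqp7 (chr4:41047963-41048212, minus strand) and Plin5 (chr17:56117549-56117798, minus) carry AGGTCA, the half-site of many nuclear receptors; Insig1 (chr5:28071162-28071411, plus) carries CCAAT, bound by the factor NF-Y; Fosb (chr7:19310046-19310295, minus) carries TGACG, a half-site of the cAMP response element; Ifit3 (chr19:34583279-34583528, plus) and Gbp2 (chr3:142620413-142620662, plus) carry GAAANNGAAA, the interferon response element; Top2a (chr11:99024190-99024439, minus) and Mki67 (chr7:135716380-135716629, minus) carry TTTGAA, the cell cycle homology element of genes expressed in mitosis.
Aqp7: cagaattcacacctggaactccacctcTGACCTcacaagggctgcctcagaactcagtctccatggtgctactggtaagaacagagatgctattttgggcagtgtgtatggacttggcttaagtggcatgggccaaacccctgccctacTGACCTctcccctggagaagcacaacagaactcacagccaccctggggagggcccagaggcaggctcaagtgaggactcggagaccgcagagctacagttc
Plin5: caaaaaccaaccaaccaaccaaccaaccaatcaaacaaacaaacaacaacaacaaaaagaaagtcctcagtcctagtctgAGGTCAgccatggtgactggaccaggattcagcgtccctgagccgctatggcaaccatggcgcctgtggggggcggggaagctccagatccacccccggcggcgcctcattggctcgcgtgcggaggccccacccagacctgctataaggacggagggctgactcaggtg
Insig1: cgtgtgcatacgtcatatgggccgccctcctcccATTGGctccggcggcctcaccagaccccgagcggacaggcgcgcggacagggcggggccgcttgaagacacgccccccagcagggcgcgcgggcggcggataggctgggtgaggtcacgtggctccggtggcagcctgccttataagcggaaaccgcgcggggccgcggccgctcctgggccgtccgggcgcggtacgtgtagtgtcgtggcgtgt
Fosb: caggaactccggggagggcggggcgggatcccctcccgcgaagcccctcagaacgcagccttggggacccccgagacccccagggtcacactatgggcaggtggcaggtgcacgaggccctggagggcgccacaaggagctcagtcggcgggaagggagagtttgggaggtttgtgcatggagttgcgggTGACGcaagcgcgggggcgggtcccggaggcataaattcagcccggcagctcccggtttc
Ifit3: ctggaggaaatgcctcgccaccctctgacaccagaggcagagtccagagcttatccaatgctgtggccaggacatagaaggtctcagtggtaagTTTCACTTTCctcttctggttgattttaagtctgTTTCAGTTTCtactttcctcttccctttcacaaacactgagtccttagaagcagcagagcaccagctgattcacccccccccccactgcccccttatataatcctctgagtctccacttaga
Gbp2: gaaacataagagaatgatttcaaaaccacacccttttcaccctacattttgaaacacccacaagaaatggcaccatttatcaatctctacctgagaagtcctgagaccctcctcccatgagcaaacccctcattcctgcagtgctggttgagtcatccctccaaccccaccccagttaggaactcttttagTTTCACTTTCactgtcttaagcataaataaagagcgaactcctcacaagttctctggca
Top2a: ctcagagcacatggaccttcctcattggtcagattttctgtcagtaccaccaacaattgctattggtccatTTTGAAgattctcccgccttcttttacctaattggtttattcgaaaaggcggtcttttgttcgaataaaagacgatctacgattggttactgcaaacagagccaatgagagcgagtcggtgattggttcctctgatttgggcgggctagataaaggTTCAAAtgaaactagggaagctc
Mki67: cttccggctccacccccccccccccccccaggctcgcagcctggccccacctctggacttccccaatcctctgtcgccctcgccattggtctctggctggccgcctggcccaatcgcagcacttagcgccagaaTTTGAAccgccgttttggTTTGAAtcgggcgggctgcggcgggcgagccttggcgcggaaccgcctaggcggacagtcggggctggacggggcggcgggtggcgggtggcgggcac

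Matches were counted over all tested genes that have an upstream sequence, 9567 genes, and a match at any listed start of a gene was accepted. AGGTCA was found in 6 of 24 PPARG target genes (25%) and 12.7% of all. CCAAT was found in 18 of 20 cholesterol synthesis genes (90%) and 41.2% of all, and TGACG in 14 of 15 cAMP target genes (93.3%) and 31.1% of all. GAAANNGAAA occurred in 11 of 25 interferon genes (44%) and 3.19% of all, and TTTGAA in 10 of 28 mitosis genes (35.7%) and 12.7% of all. Upstream sequence was found for 24 of the 35 tested genes of the first list, 20 of 27, 15 of 20, 25 of 33 and 28 of 36. None of the 5 motifs contains another, and a match says only that the letters are present. Aqp7 and Top2a hold 2 matches each, as do Ifit3 and Mki67. The lists behind these motifs moved in different directions, as the following values show.

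**Figure D2:**
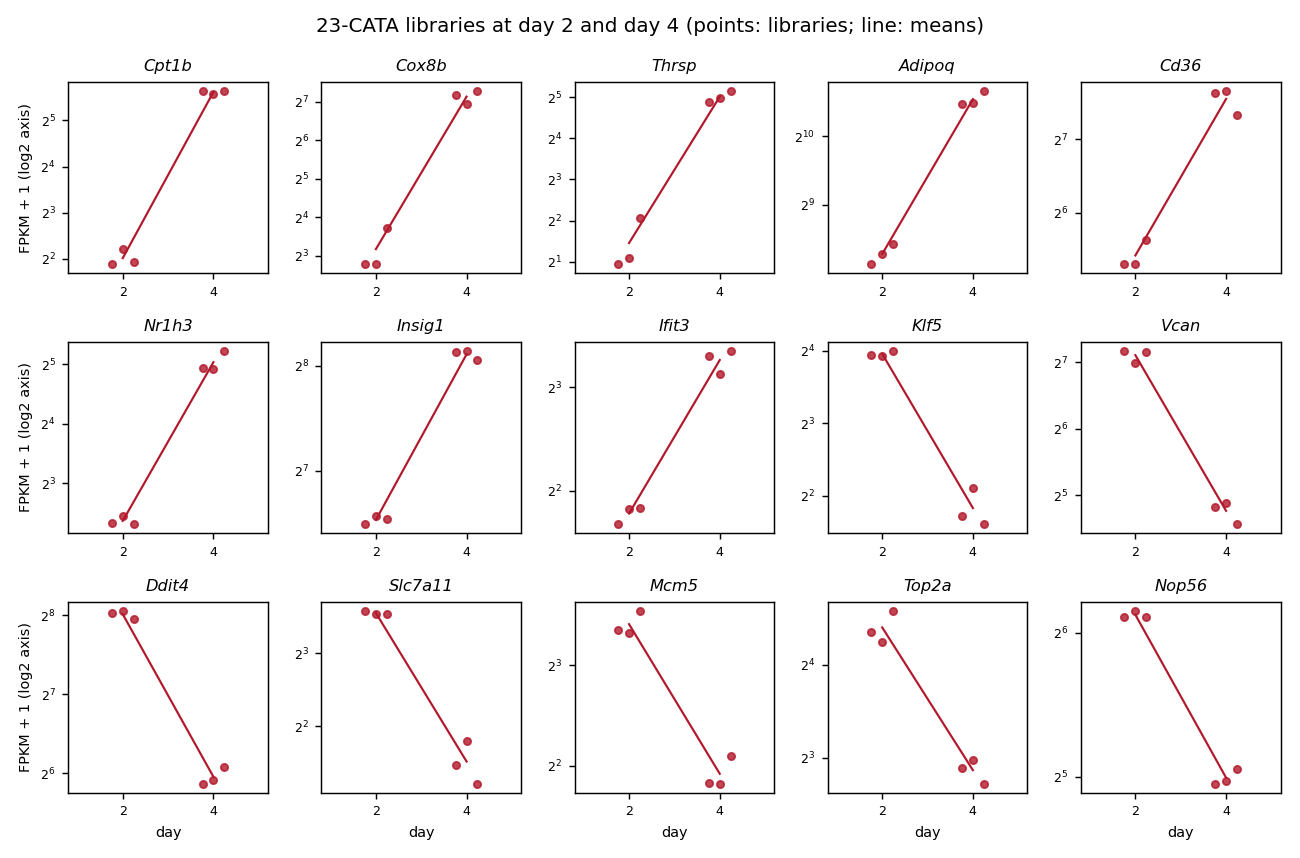
FPKM + 1 on a log2 axis for 15 genes in the 3 day 2 and 3 day 4 libraries of 23-CATA; points are libraries and lines join the means. In each panel the day 2 and day 4 points do not overlap: the 8 genes from Cpt1b to Ifit3 are higher at day 4 and the 7 from Klf5 to Nop56 lower.

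Among the regulators, Pparg changed little and the oxysterol receptor gene Nr1h3 most. Pparg was at 100.5, 109.7 and 122 FPKM at day 2 and 137, 137 and 144 at day 4 (0.48 ± 0.08; limma adjusted p = 0.000377). The day 4 libraries are all above the day 2 libraries, by a small margin. Rxra, which encodes its obligate partner, fell from 65.8, 61.8 and 57.6 to 42.4, 41.6 and 40.6 FPKM (-0.41 ± 0.06). Nr1h3, which encodes LXRA, went from 4.02, 4.48 and 3.96 to 29.6, 29.3 and 36.4 FPKM (2.81 ± 0.1), the largest rise among the PPAR and RXR receptors and cofactors. Of 14 tested, 4 rose and 6 fell (4 and 4 with median-ratio scaling, 5 and 3 with the length trend removed). This stands beside 20% and 43.2% of all genes, and the list's median was 0. Rxrg, a receptor barely detected at day 2, rose from 0.11, 0.1 and 0.25 to 0.6, 1.01 and 1.2 FPKM (0.88 ± 0.09), and Med1, a coactivator subunit, fell (-0.51 ± 0.1). Ppargc1a, the coactivator PGC1A that drives mitochondrial biogenesis, stood at 8.56, 7.74 and 8.63 FPKM at day 2 and 3.03, 3.69 and 2.35 at day 4 (-1.08 ± 0.12). Its related gene Ppargc1b did not pass (0 ± 0.11, adjusted p = 0.225, limma).

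The C/EBP factors diverged. Cebpd was lower in every day 4 library, at 41.9, 43.1 and 51.8 FPKM against 117, 126 and 119.7 (-1.25 ± 0.12). Cebpb was higher, at 169, 122 and 468 against 93.6, 74.2 and 98.9 (1.41 ± 0.42), but replicate 3 of day 4 stands far above the rest; without it the change as fitted was 0.7 and the adjusted p 0.156 by limma. Cebpa read 239, 255 and 287 FPKM at day 2 and 327, 306 and 352 at day 4 (0.48 ± 0.08), and this call was lost with quantile normalisation, where the change was 0.05 (adjusted p 0.622, limma). Klf5, an early factor that acts below CEBPB and CEBPD, fell from 14.3, 14.3 and 15 to 2.3, 3.33 and 2.05 FPKM (-2 ± 0.14). Egr2, an immediate early factor that also promotes adipogenesis, fell (-1.08 ± 0.09), as did Nfib (-0.52 ± 0.09), while Klf15 (0.56 ± 0.09), Klf2 (0.61 ± 0.13) and Srebf1 (0.5 ± 0.08), the lipogenic SREBP1, rose. Over the list of C/EBP, KLF and other adipogenic factors, 6 of 26 rose and 14 fell, beside 20% and 43.2% of all genes. The balance is set by scaling: median-ratio values gave 9 and 10, and 10 and 5 with the length trend removed.

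Genes that PPARG is known to activate rose in number: 31 of 35 rose and 1 (Plin4) fell, with a median of 1.25. Adipoq, the adipokine adiponectin, went from 280.1, 311 and 343 FPKM to 1419, 1428 and 1614 (2.4 ± 0.09; adjusted p = 1.75e-18, limma). Cd36, a fatty acid translocase, rose from 38.6, 38.5 and 48.8 to 197, 200.1 and 159.9 FPKM (2.27 ± 0.09). Fabp4, the fatty acid binding protein aP2, was the most abundant transcript named here, at 25696, 26127 and 29024 FPKM at day 2 and 56981, 56284 and 62607 at day 4 (1.27 ± 0.26). In all 3 genes the day 4 libraries lie wholly above those of day 2. Quantile normalisation sets Fabp4, the highest value in each of the 6 libraries, to the same level and so leaves its change at 0. Lpl, lipoprotein lipase, which hydrolyses the triglyceride of lipoproteins, rose from 396, 376 and 401 to 1145, 1136 and 870.1 FPKM (1.56 ± 0.07). Aqp7, the glycerol channel whose upstream AGGTCA is shown above, stood at 9.44, 9.73 and 9.52 FPKM at day 2 and 58.3, 54.2 and 56.2 at day 4 (2.58 ± 0.08), without overlap. Adipor2, an adiponectin receptor, did not pass (0.19 ± 0.05), and its direction depended on scaling: it was called at -0.23 with quantile normalisation and at 0.26 with median-ratio scaling.

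Proteins of the lipid droplet followed, with 15 of 19 higher and 2 lower (median 0.92). Cidec, which fuses droplets in white fat, was at 649, 667 and 751 FPKM at day 2 and 3252, 3115 and 3568 at day 4 (2.41 ± 0.09). Its brown fat relative Cidea stood at 3.71, 3.66 and 4.58 FPKM at day 2 and 91.5, 81.1 and 98.1 at day 4 (4.34 ± 0.1), and Cideb at 1.34, 2.44 and 2.64 FPKM at day 2 and 8.75, 7.9 and 11.2 at day 4 (1.87 ± 0.21). All 3 CIDE genes were thus higher in every day 4 library. Bscl2, the seipin of droplet budding, rose from 24.5, 22.6 and 22.3 to 68.6, 61.8 and 80.7 FPKM (1.7 ± 0.11), and Cav1 of the caveolae rose by 1.22 ± 0.08. Plin1, the coat protein that gates lipolysis, went from 408, 402 and 402 to 695, 689.6 and 694 FPKM (0.92 ± 0.06), and Plin5, a coat protein of oxidative cells, from 0.91, 0.69 and 0.74 to 3.19, 2.32 and 3.04 (1.25 ± 0.09). Plin4 fell as fitted (-0.17 ± 0.08), a call that ended under median-ratio scaling and with the length trend removed.

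Uptake, storage and release of fatty acids moved in the same direction. Of 18 uptake and binding genes 13 rose and 3 fell, of 16 triglyceride assembly enzymes 10 rose and 2 fell, and of 17 lipolysis genes 13 rose and 2 fell. These lists, the droplet proteins, the PPARG targets and the defining markers share members, among them Aqp7, Cidec and Fabp4, and are not independent. Slc27a1, a fatty acid transporter, rose (1.17 ± 0.09), whereas the lipoprotein receptors Vldlr (-0.71 ± 0.09) and Lrp1 (-1.1 ± 0.18) fell. Gpd1, which makes the glycerol phosphate backbone, was at 2117, 2052 and 2191 FPKM at day 2 and 4567, 4529 and 4499 at day 4 (1.24 ± 0.06). Pck1, the entry enzyme of glyceroneogenesis, rose from 4.78, 4.33 and 5.95 to 15, 15 and 14.4 FPKM (1.55 ± 0.08), and Gk, glycerol kinase, from 7.34, 7.74 and 7.83 to 20.1, 22.4 and 16.2 (1.39 ± 0.09). These routes to glycerol phosphate were higher in all day 4 libraries, while Gpam (0.07 ± 0.08), Gpat3 (0.11 ± 0.06) and Agpat1 (0.26 ± 0.07) did not pass (Gpat3 and Agpat1 were called higher with median-ratio scaling, Gpam and Agpat1 with the length trend removed), and Dgat2, the last enzyme, fell slightly as fitted (-0.12 ± 0.06; not called with median-ratio scaling). Pnpla2, the lipase ATGL, rose from 757, 836 and 715 to 1413, 1288 and 1607 FPKM (1.04 ± 0.08). Receptors that restrain lipolysis rose with it: Adora1 (1.74 ± 0.08), Hcar2 (1.13 ± 0.07) and Hcar1 (1.06 ± 0.08). The natriuretic peptide receptor Npr1, which stimulates lipolysis, rose by 1.07 ± 0.09, and Npr3, which clears the peptides, fell (-0.55 ± 0.08).

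Fatty acid oxidation was among the most uniform groups. 26 of 27 genes rose and none fell, with a median of 1.3; the exception was the liver-type carnitine palmitoyltransferase Cpt1a (0.08 ± 0.1, adjusted p = 0.59, limma). Its muscle and brown fat isoform Cpt1b, the entry step for long-chain fatty acids into mitochondria, read 2.68, 3.65 and 2.81 FPKM at day 2 and 48.6, 47 and 48.8 at day 4 (3.76 ± 0.12; adjusted p = 3.29e-20). At day 2 Cpt1b lay below Cpt1a (11.5, 9.53 and 8.79 FPKM) in every library, and at day 4 above it (10.3, 9.38 and 8.59). Acaa1b, a peroxisomal thiolase, went from 2.52, 3.67 and 2.3 to 45.1, 40.3 and 56.5 FPKM (3.81 ± 0.17). Hadhb, of the mitochondrial trifunctional protein, rose from 155, 166 and 179.7 to 663, 667 and 637 FPKM (2.12 ± 0.08), and peroxisomal Ehhadh from 0.08, 0.26 and 0.1 to 3.74, 3.45 and 4.18 (2.21 ± 0.07). No day 2 library reached a day 4 library in these genes. Acot2 (1.7 ± 0.09) and Decr1 (1.67 ± 0.08) rose as well. The counts were the same under quantile normalisation, median-ratio scaling and removal of the length trend. Wherever a list below has 0 members in a direction, limma's unadjusted p under 0.05 also gave 0, except 1 collagen gene that was higher and 1 interferon gene with a positive difference from 23-Tet1.

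Mitochondrial energy genes rose. All 25 of 25 citrate cycle genes rose (median 0.77; 21 after quantile normalisation), as did 50 of 51 respiratory chain and ATP synthase genes (median 1.02) and 24 of 38 mitochondrial ribosomal proteins (median 0.47; 37 with median-ratio scaling and 35 with the length trend removed), with none lower. Idh3b, a subunit of isocitrate dehydrogenase, went from 205, 209 and 218 to 496, 489 and 575 FPKM (1.44 ± 0.07). Cox8b, a cytochrome oxidase subunit of muscle and brown fat, read 5.83, 5.9 and 12.3 FPKM at day 2 and 143, 121 and 155 at day 4 (4.18 ± 0.22). Replicate 3 was the highest of both days for this gene, and the groups stay apart. Cox7a1, another tissue-restricted subunit of that complex, rose from 5.66, 8.17 and 7.14 to 76.9, 64 and 89 FPKM (3.43 ± 0.31). These 2 moved further than the subunits found in all cells, such as Cox5b, from 792, 739.6 and 747 to 1503, 1458 and 1972 FPKM (1.25 ± 0.12), Ndufv1 (1.34 ± 0.1) and Ndufa1 (1.31 ± 0.18). Atp5j alone did not pass (0.37 ± 0.12, adjusted p = 0.125, limma; called higher with median-ratio scaling).

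Genes linked to brown and beige fat rose in part. Of 13 thermogenic genes tested 10 rose and 2 fell (median 1.46); the risers include Cidea, Cox8b, Cpt1b and Cox7a1 above. Elovl3, an elongase of brown fat, went from 6.2, 8.09 and 7.67 to 57.4, 58.8 and 62.5 FPKM (3.02 ± 0.09). Fgf21, a hormone that brown fat secretes, rose from 3.57, 2.59 and 3.2 to 9.13, 10.2 and 9.76 FPKM (1.53 ± 0.17). Ppargc1a fell, as did Ebf2 as fitted (-0.09 ± 0.1, at about 1 FPKM), a call that ended in all 3 rescalings. Ucp1, Dio2 and Prdm16 did not reach the filter of 1 FPKM in 3 libraries and were not tested. The list holds 25 genes, of which 13 reached the filter of 1 FPKM in 3 libraries; it and the oxidation and respiratory lists share Cpt1b, Cox8b and Cox7a1 and are not independent.

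Among all genes, the largest rises by the naming rule were led by Rbp7, a retinol binding protein, at 12.3, 10.4 and 17.4 FPKM at day 2 and 381, 348 and 389.7 at day 4 (4.88 ± 0.27). Cidea, Cox8b, Acaa1b, Thrsp and Cpt1b came next. Ghrh, growth hormone-releasing hormone, was near the detection limit at 0.62, 0.31 and 0 FPKM and reached 15.7, 12.8 and 14.6 (3.72 ± 0.16). Tmem182 went from 0.46, 0.71 and 0.42 to 19.4, 17.4 and 14.5 FPKM (3.71 ± 0.11), and Aldh3b2, an aldehyde dehydrogenase, from 7.14, 9.05 and 8.92 to 107, 102 and 114 (3.69 ± 0.09). Chchd10, a protein of the mitochondrial intermembrane space, stood at 2.83, 3.09 and 3.85 FPKM at day 2 and 44.7, 40.7 and 46.9 at day 4 (3.56 ± 0.15). Day 4 was far above day 2 in each. Ubd (3.68 ± 0.17), a ubiquitin-like modifier, Slc22a20 (3.46 ± 0.1), the apolipoprotein Apoc3 (3.21 ± 0.17) and the haem carrier Hpx (3.04 ± 0.17) complete the 15 with Cox7a1. The course over the other days differed among them. Rbp7 was at 0.37, 0.58 and 0.2 FPKM at day 0 and back at 13.2, 15.5 and 14.8 at day 6. Cpt1b stayed at 54.7, 53.2 and 49.3 FPKM at day 6, and Cox8b went on to 293, 261 and 256. For Rbp7, then, the day 4 libraries alone are high; for Cpt1b and Cox8b those of day 6 are high too.

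Fat-making enzymes rose with the fat-burning ones. Of 22 fatty acid synthesis enzymes 16 rose and 1 (Elovl6) fell, with a median of 0.77. Thrsp, a lipogenic protein named for its response to thyroid hormone, went from 0.91, 1.14 and 3.17 to 28.7, 30.7 and 34.5 FPKM (3.79 ± 0.19). Scd1, the desaturase that makes oleate, rose from 1241, 1173 and 1152 to 2882, 2928 and 2162 FPKM (1.29 ± 0.09), and Slc25a1, the citrate carrier, from 120.2, 129.8 and 112 to 325, 291 and 359 (1.57 ± 0.08). Acss2, which makes acetyl-CoA from acetate, rose (1.65 ± 0.1). Fasn, fatty acid synthase itself, overlapped between days at 244, 207 and 225 FPKM at day 2 and 243, 252 and 223 at day 4 and did not pass (0.24 ± 0.11, adjusted p = 0.482, limma). It was called higher with median-ratio scaling (0.31, adjusted p = 0.0162, limma) and with the length trend removed (0.6, adjusted p = 1.22e-08). Elovl6 fell from 16.3, 14.4 and 15.1 to 4.73, 5.12 and 4.38 FPKM (-1.36 ± 0.09).

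Cholesterol synthesis genes mostly rose. Of 27 tested 19 rose and 4 fell (median 0.64), against 21 and 1 with median-ratio scaling and 22 and 2 with the length trend removed. Insig1, the sterol sensor whose upstream CCAAT is shown above, went from 88.8, 93.5 and 91.8 to 279, 281 and 264 FPKM (1.73 ± 0.05). Fdft1, squalene synthase, rose from 12.3, 12.3 and 12.9 to 34.6, 34.4 and 41.3 FPKM (1.62 ± 0.09) and Fdps from 29.1, 33.1 and 28.8 to 81.3, 75.1 and 95.4 (1.58 ± 0.1). These 3 were higher in every day 4 library, as were Acat2 (1.58 ± 0.07) and Pmvk (1.58 ± 0.1). Hmgcs1 did not pass (0.15 ± 0.06), and was called at -0.25 with quantile normalisation and at 0.23 with median-ratio scaling. Hsd17b7 fell (-0.42 ± 0.11).

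Glucose use and insulin signalling gave a mixed picture. Slc2a4, the insulin-responsive glucose transporter GLUT4, was at 17.6, 19 and 17.6 FPKM at day 2 and 64.7, 62.5 and 65.7 at day 4 (1.92 ± 0.06). Glycolysis genes rose in 17 of 23 cases and fell in 4 (median 0.57; 19 and 2 with median-ratio scaling, 20 and 2 with the length trend removed), with Aldoa (1.03 ± 0.08), Gpi1 (1.17 ± 0.09) and Gapdh (0.86 ± 0.12) higher and Eno2 (-0.69 ± 0.1) and Vegfa (-0.4 ± 0.06) lower; Car9, a carbonic anhydrase of the hypoxia programme, rose (1.8 ± 0.17). Insulin signalling genes split 8 up and 9 down of 25 (14 and 7 with the length trend removed), beside 20% and 43.2% of all genes. Txnip, which restrains glucose uptake, rose from 129, 135 and 136 to 326, 335 and 288 FPKM (1.38 ± 0.14). Irs1 (-0.66 ± 0.11), the kinase subunit gene Pik3r1 (-0.76 ± 0.08) and the receptor Igf1r (-0.86 ± 0.12) fell; Irs2 and Foxo1 did not pass (-0.02 ± 0.1 and 0 ± 0.09), and with the length trend removed both were called higher (0.21 and 0.33, adjusted p 0.00105 and 2.79e-05, limma). Insulin itself was supplied at both times, at 10 and then 5 µg/ml.

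Of 15 adipocyte hormone genes 6 rose and 4 fell, beside 20% and 43.2% of all genes (7 and 2 with median-ratio scaling). Retn, resistin, went from 28, 22.5 and 28.5 to 95.9, 90.8 and 115 FPKM (2.04 ± 0.13), and Rarres2, chemerin, from 102, 117 and 131 to 368, 367 and 419 (1.87 ± 0.13). Cfd, the serine protease adipsin, was at 4.41, 4.72 and 7.42 FPKM at day 2 and 14.1, 13.6 and 15.9 at day 4 (1.43 ± 0.13). Agt, angiotensinogen, rose (1.19 ± 0.14), and Lcn2, lipocalin-2, fell from 3185, 3850.4 and 3857 to 1601, 1588 and 1793 FPKM (-0.98 ± 0.13).

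**Figure D3:**
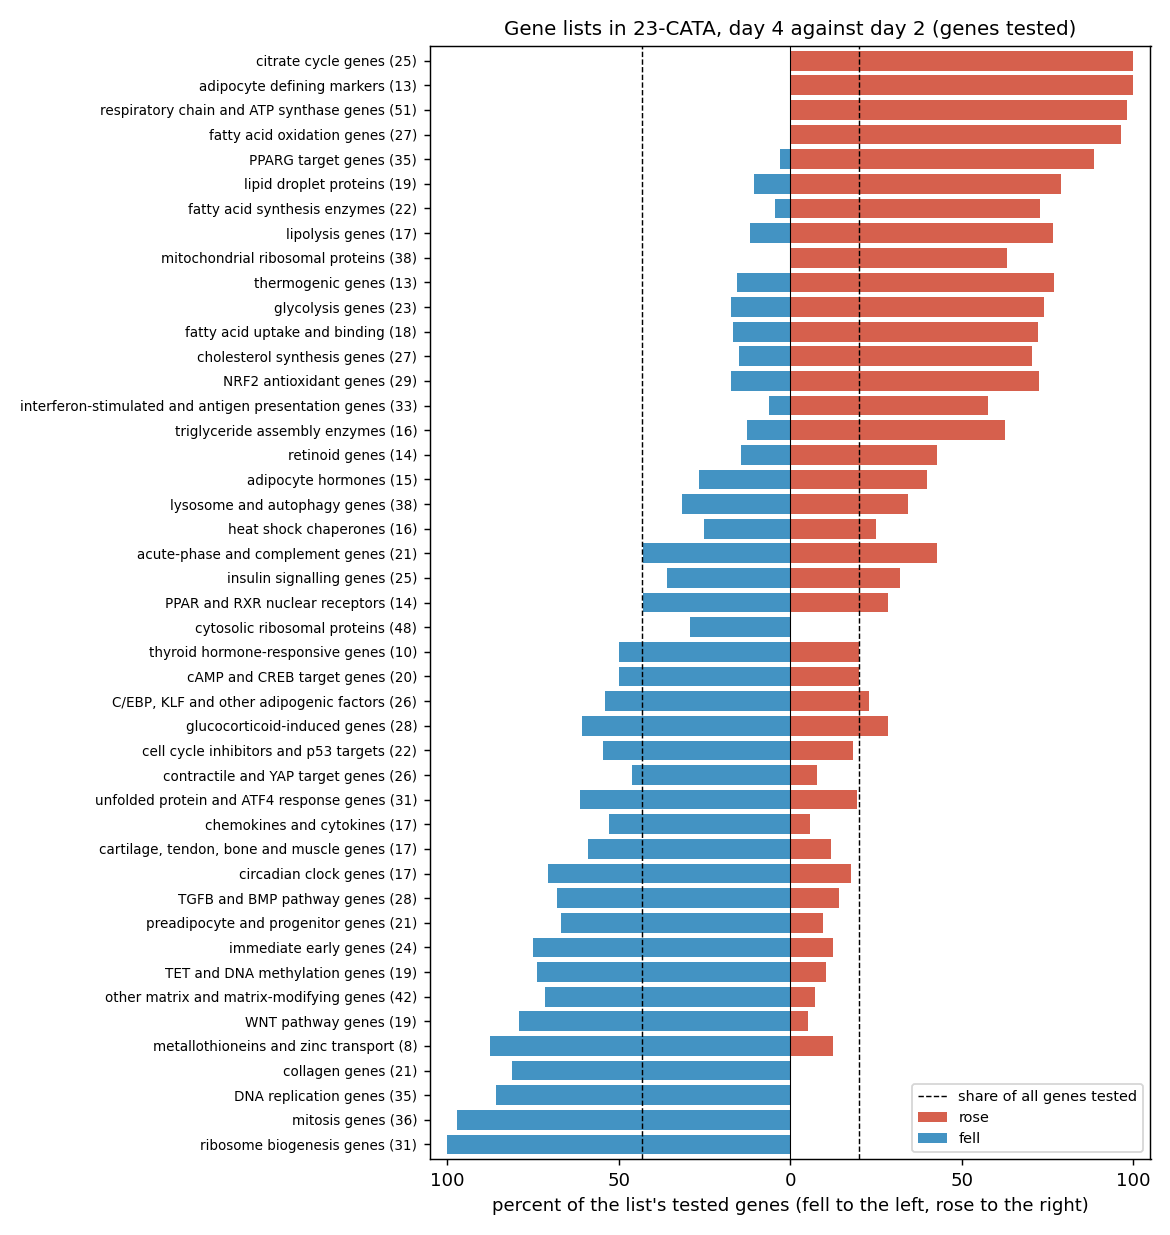
For each gene list with 8 or more genes tested (number in brackets), the bar to the right is the percentage that rose from day 2 to day 4 in 23-CATA and the bar to the left the percentage that fell; dashed lines mark the 20% and 43.2% of all genes tested. Lipid, oxidation and mitochondrial lists lie at the top and cell cycle, ribosome biogenesis and matrix lists at the bottom.

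Genes induced by glucocorticoids moved both ways: of 28 tested 8 rose and 17 fell (median -0.37; 11 and 14 with the length trend removed), beside 20% and 43.2% of all genes. Ddit4, a stress-induced inhibitor of mTORC1, went from 261, 266 and 246 to 57.4, 59.4 and 66.7 FPKM (-1.91 ± 0.08), and Errfi1, a feedback inhibitor of the EGF receptor, from 179.9, 171 and 169 to 47.8, 52.4 and 45.8 (-1.67 ± 0.06). Mertk (-1.06 ± 0.09) and the interleukin receptor Il1r1 (-1.22 ± 0.08) fell too. On the other side Sult1a1, a sulfotransferase, rose from 36.9, 39.6 and 42.2 to 142, 146 and 153 FPKM (2.02 ± 0.11), and Pdk4, which blocks glucose oxidation and is also induced by PPARs and fasting, from 64.2, 63 and 61.9 to 161, 160.4 and 136 (1.4 ± 0.11). Both sets of libraries are fully apart in these genes. Tgm2 (1.79 ± 0.09), Angptl4 (1.05 ± 0.08) and Hsd11b1 (0.82 ± 0.1), which regenerates active glucocorticoid, also rose. Glul (0.25 ± 0.05), Zbtb16 (0.32 ± 0.08) and Klf9 (0.19 ± 0.14) did not pass; each was called higher with the length trend removed, and the first 2 with median-ratio scaling as well.

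Of 20 cAMP targets 4 rose and 10 fell in the deposited values, shares near the 20% and 43.2% of all genes. With the length trend removed 6 rose and 9 fell, beside 3816 and 3248 of all 12102 genes. Fosb, whose TGACG is shown above, read 59, 53.8 and 46.7 FPKM at day 2 and 16.8, 18.7 and 15.7 at day 4 (-1.43 ± 0.1), and Sik1, a kinase induced by CREB, 26.6, 27.1 and 24.4 FPKM at day 2 and 9.44, 9.91 and 8.95 at day 4 (-1.23 ± 0.06). Pde4b, a phosphodiesterase, fell (-0.7 ± 0.09), while Pde3b, the insulin-activated one of fat cells, rose (0.7 ± 0.1). Atf3 rose from 8.88, 9.57 and 8.4 to 15.8, 17.1 and 17.4 FPKM (0.99 ± 0.12) and Crem rose by 0.56 ± 0.09. Of 10 thyroid hormone-responsive genes, 2 (Thrsp and the malic enzyme Me1, 0.83 ± 0.06) rose and 5 fell, among them Bcl3 (-0.47 ± 0.14); these shares too are near those of all genes, and 2 rose and 2 fell with median-ratio scaling, 4 and 2 with the length trend removed. Immediate early genes, which respond within minutes to growth signals, mostly fell: 18 of 24 fell and 3 rose (median -0.47), including Fos, from 172, 174 and 152 to 73.5, 76.1 and 78.8 FPKM (-0.97 ± 0.07), and Egr1 (-0.97 ± 0.07).

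Cell division genes fell almost throughout. None of 36 mitosis genes or 35 DNA replication genes rose, while 35 and 30 fell (medians -0.61 and -0.65); with the length trend removed the falls numbered 29 and 31. Top2a, the topoisomerase that untangles chromosomes, went from 19.4, 18 and 22.9 to 6.42, 6.9 and 5.59 FPKM (-1.38 ± 0.08), and Mki67, the proliferation antigen, from 6.35, 5.19 and 6.33 to 2.21, 2.41 and 1.74 (-1.01 ± 0.13). Mcm5, of the replicative helicase, fell from 9.17, 8.98 and 10.6 to 2.55, 2.53 and 3.28 FPKM (-1.34 ± 0.09), and Rrm2, the inducible subunit of ribonucleotide reductase, from 16.4, 16.6 and 17.7 to 7.38, 5.96 and 5.38 (-1.17 ± 0.08). Levels at day 4 were below every day 2 library in these 4 genes and not at 0. Cdt1 (-0.94 ± 0.09) and Cdc6 (-0.94 ± 0.08), which license origins, and the kinase gene Aurkb (-0.91 ± 0.11) fell as well. Of 22 cell cycle inhibitors and p53 targets 4 rose and 12 fell (2 and 9 with quantile normalisation, 6 and 7 with the length trend removed), near the 20% and 43.2% of all genes: Cdkn2c, the INK4 inhibitor p18, went from 45.7, 42.3 and 48.7 to 76.7, 72.5 and 75 FPKM (0.85 ± 0.09), and Cdkn1a, p21, from 204, 208 and 193 to 265, 246 and 264 (0.5 ± 0.06; not called after quantile normalisation). Trp53 fell (-0.42 ± 0.07), as did its target Trp53inp1 (-0.92 ± 0.13).

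Genes of ribosome production fell too. All 31 of 31 ribosome biogenesis genes fell (median -0.48; 25 with median-ratio scaling and 27 with the length trend removed). Myc, the factor that drives many of them and a member of the list, went from 88.1, 88.4 and 81.4 to 27.9, 28 and 31.9 FPKM (-1.38 ± 0.06). Nop56, a core protein of box C/D particles, stood at 68.2, 70.3 and 68.1 FPKM at day 2 and 29.9, 30.4 and 32.2 at day 4 (-0.99 ± 0.08), and Gnl3 (-0.74 ± 0.07) and Rrp12 (-0.72 ± 0.08) fell. The day 4 libraries are close to each other and all lower. Cytosolic ribosomal proteins depended on scaling: 0 rose and 14 fell of 48 in the deposited values, 44 with quantile normalisation, 2 under median-ratio scaling and 36 with the length trend removed.

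Matrix genes mostly fell. Of 21 collagen genes 0 rose and 17 fell (median -0.52), and of 42 other matrix genes 3 rose and 30 fell (median -0.51; 6 and 26 with the length trend removed). Collagen transcripts are long, and with the length trend removed 4 rose and 13 fell. Vcan, the proteoglycan versican, was at 144, 126 and 142 FPKM at day 2 and 27.3, 28.6 and 22.6 at day 4 (-2.2 ± 0.11; -1.78 with the length trend removed). Col12a1, a fibril-associated collagen, fell from 29.4, 24.9 and 24.3 to 7.53, 8.66 and 5.8 FPKM (-1.57 ± 0.19; -1.17), and Fbn1, fibrillin-1, from 20.4, 17.8 and 17.2 to 6.11, 6.59 and 5.33 (-1.33 ± 0.14; -0.92). The fall held for each, and was smaller, when length was accounted for. Among abundant members Col6a1 (-0.73 ± 0.07) and Col1a2 (-0.69 ± 0.08) fell, Sparc did not pass (0.19 ± 0.06; called at -0.21 with quantile normalisation and 0.27 with median-ratio scaling), and Mmp11, a stromelysin, rose (0.7 ± 0.08). The largest fall in the whole comparison under the naming rule was Sned1, an extracellular matrix protein, from 77.5, 50.4 and 63.6 to 9.59, 12.2 and 5.24 FPKM (-2.59 ± 0.31; -2.26 with the length trend removed).

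Progenitor and signalling genes followed the matrix. Of 21 preadipocyte and progenitor genes 2 rose and 14 fell, beside 20% and 43.2% of all genes (3 and 10 with the length trend removed). Vcam1, an adhesion receptor of stromal progenitors, went from 155, 155 and 158 to 31.3, 32.7 and 31.3 FPKM (-2.11 ± 0.05), and Cd44, the hyaluronan receptor, from 61.5, 61 and 58.7 to 22.4, 21.6 and 19.2 (-1.33 ± 0.06). Sox9, a chondrogenic factor that holds back adipogenesis, fell from 23.7, 20.5 and 20.8 to 8.08, 9.79 and 8.03 FPKM (-1.09 ± 0.09). The PDGF receptors Pdgfra (-0.8 ± 0.11) and Pdgfrb (-0.57 ± 0.1) fell, whereas Ly6a, the stem cell antigen Sca-1, did not pass (0.15 ± 0.21). WNT pathway genes, whose signalling blocks adipogenesis, gave 1 up and 15 down of 19, beside 20% and 43.2% of all genes (3 and 12 of the 17 with a length once that trend was removed). Rspo3, a WNT amplifier, was at 23.7, 21.6 and 22.4 FPKM at day 2 and 8.5, 7.59 and 6.21 at day 4 (-1.34 ± 0.08). The list also holds inhibitors of that signalling, and Sfrp1, a secreted WNT inhibitor, was among the falls. TGFB and BMP genes gave 4 up and 19 down of 28, beside 20% and 43.2% of all genes (6 and 14 with the length trend removed). Fst, follistatin, fell from 10.4, 12.2 and 11.1 to 3.05, 2.49 and 2.56 FPKM (-1.58 ± 0.08) and Tgfbr3 fell (-1.07 ± 0.11), while the BMP antagonist Chrdl1 rose (1.25 ± 0.12). Genes of cartilage, tendon, bone and muscle split 2 up and 10 down of 17, beside 20% and 43.2% of all genes. Among them were Des (1.06 ± 0.13), the muscle filament desmin, and Dlx5 (-0.94 ± 0.14), an osteoblast factor. Contractile and YAP target genes gave 2 up and 12 down of 26, the falls near the 43.2% of all genes (4 and 7 with median-ratio scaling, 6 and 8 of 23 with the length trend removed). Flna (-0.95 ± 0.11) and Axl (-0.95 ± 0.07) fell, and Acta2, smooth muscle actin, did not pass (0.48 ± 0.16, adjusted p = 0.0612, limma; called higher in all 3 rescalings).

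The 15 largest falls were of varied function. Spry1, a feedback inhibitor of receptor kinases, went from 42.5, 41.7 and 38.6 to 10.1, 11.2 and 10.7 FPKM (-1.7 ± 0.09), and Fgfr2 from 28.7, 28.2 and 25.3 to 7.29, 6.61 and 6.42 (-1.72 ± 0.08). Ceacam1, an adhesion molecule, fell from 103, 101 and 94.3 to 20.8, 21.1 and 16 FPKM (-2.17 ± 0.11). The serpins Serpina3n (-1.97 ± 0.07) and Serpina3m (-1.75 ± 0.14), the resistin-like Retnla (-1.82 ± 0.16) and the microRNA host transcript Dnm3os (-1.84 ± 0.13) are among them; Serpina3 genes are near-identical copies, between which reads may have been split, as are Acaa1b with Acaa1a and Ifit3 with Ifit3b.

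Immune lists did not share a direction. Acute-phase and complement genes gave 9 up and 9 down of 21, the falls near the 43.2% of all genes and the rises above the 20%. Steap4, a metalloreductase of adipocytes, rose from 13.8, 12.3 and 13.3 to 72.6, 69.6 and 58.6 FPKM (2.41 ± 0.07), and Cp, ceruloplasmin, from 13.2, 11.7 and 14.8 to 35.8, 39 and 29.2 (1.47 ± 0.08). By contrast Lbp, which binds endotoxin, fell from 229.8, 239 and 195 to 76.7, 75.7 and 81.6 FPKM (-1.34 ± 0.08), as did the complement gene C4b (-1.77 ± 0.08). Of 17 chemokine and cytokine genes 1 rose and 9 fell, beside 20% and 43.2% of all genes. Cxcl12, a stromal chemokine, was at 1189.6, 1156 and 1104 FPKM at day 2 and 477, 495 and 451 at day 4 (-1.13 ± 0.05). Interferon-stimulated and antigen presentation genes rose in 19 of 33 cases and fell in 2 (median 0.48). Ifit3 was at 2.2, 2.54 and 2.57 FPKM at day 2 and 8.86, 7.72 and 9.21 at day 4 (1.63 ± 0.12), and Gbp2 at 1.03, 1.29 and 1.38 FPKM at day 2 and 4.5, 4.68 and 5.84 at day 4 (1.57 ± 0.1); both carry the GAAANNGAAA match shown above. These day 4 levels are well under those of day 0 for Ifit3, at 161, 157 and 163 FPKM, and of day 6, at 177, 184 and 187. Ifi27 (1.2 ± 0.15) and the immunoproteasome subunit Psmb10 (1.16 ± 0.16) rose, and Stat2 fell (-0.36 ± 0.08).

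The clock and stress lists moved in part. Of 17 circadian genes 3 rose and 12 fell, beside 20% and 43.2% of all genes. Cry1 (0.93 ± 0.09) and Arntl (0.59 ± 0.09) were among those that rose, and Nr1d1, the REV-ERB repressor, fell from 44.6, 43.5 and 40.1 to 18.2, 17.1 and 19.8 FPKM (-1.03 ± 0.07) with Nr1d2 (-0.96 ± 0.09) and Per3 (-0.73 ± 0.1). The hour of sampling is not in the labels. NRF2 antioxidant genes gave 21 up and 5 down of 29 (23 and 3 with median-ratio scaling); Gpx4, which guards lipids against peroxidation, went from 1023, 1190.2 and 1406 to 2626, 2594 and 3181 FPKM (1.37 ± 0.14), and Slc7a11, the cystine importer, from 11.1, 10.6 and 10.7 to 1.77, 2.48 and 1.3 (-1.92 ± 0.11). Gpx1 (1.1 ± 0.09), Gsta4 (1.1 ± 0.09) and Pgd (1.1 ± 0.06), enzymes of glutathione and NADPH metabolism, rose. Unfolded protein and ATF4 genes gave 6 up and 19 down of 31 (9 and 10 with median-ratio scaling, 2 and 18 with quantile normalisation), beside 20% and 43.2% of all genes. Psat1 (0.78 ± 0.08) was higher and Slc7a5 (-0.62 ± 0.09) lower. Heat shock chaperones gave 4 and 4 of 16 (10 and 2 with median-ratio scaling, 5 and 2 with the length trend removed), and lysosome and autophagy genes 13 and 12 of 38 (19 and 5, and 18 and 8, in the same order). As deposited, both lists stand beside 20% up and 43.2% down of all genes. Of 8 metallothionein and zinc transport genes 1 rose and 7 fell (5 falls with quantile normalisation or median-ratio scaling, 3 with the length trend removed): the zinc importer Slc39a14 went from 57, 52.6 and 49.3 to 17.1, 17 and 14.5 FPKM (-1.5 ± 0.08), and Mt2 from 3909, 4159.6 and 4386 to 2245, 2282 and 2482 (-0.68 ± 0.12). Of 14 retinoid genes 6 rose and 2 fell, led by Aldh1a7, from 3.39, 4.03 and 4.31 to 15.4, 19.6 and 16.7 FPKM (2.04 ± 0.1), and the reductase gene Dhrs3 (1.39 ± 0.1). Of the 3 macrophage markers that reached the filter 2 rose (Cd68, 1.18 ± 0.18, and Cd14, 0.68 ± 0.12); none of the 3 endothelial ones passed (limma).

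The TET enzymes fell. Tet1 was at 21.6, 16.8 and 18.4 FPKM at day 2 and 9.73, 11 and 6.8 at day 4 (-0.84 ± 0.11; adjusted p = 1.22e-08, limma). In 23-NC it was listed at 0.02, 0.02 and 0.03 FPKM at day 2 and 0.03, 0.02 and 0.02 at day 4, and in 23-Tet1 at 5.74, 7.35 and 7.46 FPKM at day 2 and 5.38, 4.66 and 5.54 at day 4, so the 23-CATA libraries are the highest of the 3 populations at both days. Whether the reads come from the cell's own gene or from an introduced copy was not tested. Tet1 is long, and with the length trend removed its fall was -0.39 (adjusted p = 0.00582, limma). Tet2 (-0.5 ± 0.16) and Tet3 (-0.5 ± 0.15) fell as deposited, and were not called with the length trend removed (-0.16 and -0.12, adjusted p 0.0975 and 0.098, limma). Of 19 TET and DNA methylation genes 2 rose and 14 fell, beside 20% and 43.2% of all genes (1 and 9 with quantile normalisation, 4 and 7 with median-ratio scaling, 4 and 6 with the length trend removed). Among the falls were Uhrf1, from 14.1, 12.4 and 12.3 to 5.48, 5.7 and 5.69 FPKM (-0.92 ± 0.07), and Dnmt1 (-0.67 ± 0.08), the maintenance pair, which also belongs to replicating cells.

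The same step was then read in the other two populations, which share no library with 23-CATA. In 23-NC 24.6% of the 12231 genes rose and 29.7% fell, and in 23-Tet1 21.8% and 26.6%. Of the 2447 genes that rose in 23-CATA, 1225 also rose in 23-NC (50.1% of the 23-CATA rises and 40.8% of the 23-NC rises) and 978 in 23-Tet1 (40% and 36.7%). Of the 5282 that fell, 2042 fell in 23-NC (38.7% and 56.2%) and 1580 in 23-Tet1 (29.9% and 48.6%). Genes that moved the opposite way numbered 362 of the rises and 880 of the falls for 23-NC, and 422 and 985 for 23-Tet1. The test of the difference itself, by limma, called the 23-CATA step more positive than the 23-NC step in 18.8% of genes and more negative in 31.8%, and against 23-Tet1 in 21.2% and 32.6%. Scaling moved these splits: the share of called differences that were positive was, against 23-NC, 37.1% in the deposited values, 49.2% with quantile normalisation, 55.4% under median-ratio scaling and 53.9% with the length trend removed, and against 23-Tet1 39.5%, 50.2%, 56% and 54.9%. The list counts below for 23-NC, 23-Tet1 and the differences between steps are from the deposited values. They were not recounted under another scaling and may move with it.

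**Figure D4:**
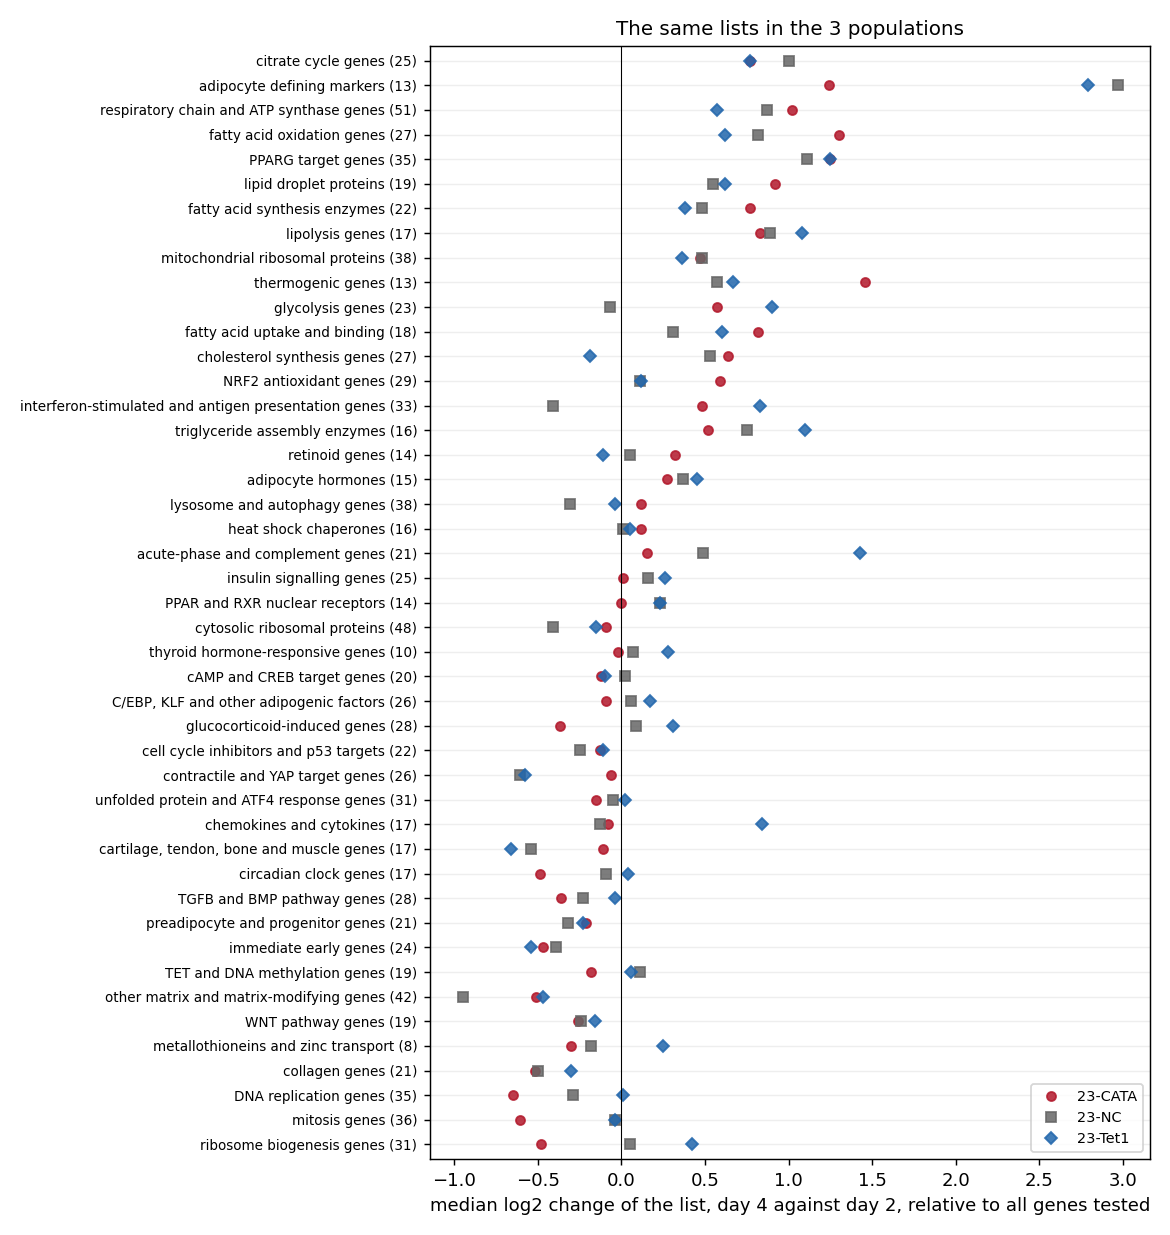
Median log2 change from day 2 to day 4 of each gene list, relative to all genes tested, in 23-CATA (circles), 23-NC (squares) and 23-Tet1 (diamonds). The adipocyte markers sit at 1.24 in 23-CATA against 2.97 and 2.79 in the others, while ribosome biogenesis lies at -0.48 against 0.05 and 0.42.

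The populations entered the step at different levels, which bears on every such difference. The 13 adipocyte markers had a median change of 1.24 in 23-CATA, 2.97 in 23-NC and 2.79 in 23-Tet1, and the difference was negative in 11 and positive in 1 of them against 23-NC. Gpd1 is an example: at day 2 it was at 2117, 2052 and 2191 FPKM in 23-CATA and at 3.3, 3.28 and 3.61 in 23-NC, and at day 4 at 4567, 4529 and 4499 in 23-CATA and 294, 286 and 335 in 23-NC (difference of steps -4.92 ± 0.09). Dgat2 was at 47.2, 45.9 and 50.1 FPKM at day 2 and 564, 565 and 524 at day 4 in 23-NC, so that its day 4 level there passed that of 23-CATA (-3.67 ± 0.09). The first gene was still lower in 23-NC at day 4 despite the larger change; the second was higher.

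Of 13 thermogenic genes the 23-CATA step was more positive than that of 23-NC in 8 and more negative in 3, and against 23-Tet1 in 8 and 3. Cpt1b, Cidea and Rbp7, which is not in that list, are among the largest differences by the naming rule. Cpt1b was at 1.61, 2.08 and 1.66 FPKM at day 2 and 1.36, 2.29 and 1.88 at day 4 in 23-NC and at 2.53, 2.41 and 2.41 FPKM at day 2 and 3.34, 2.59 and 2.14 at day 4 in 23-Tet1 (differences 3.69 ± 0.17 and 3.61 ± 0.17). Cidea reached 1.48, 2.09 and 1.41 FPKM at day 4 in 23-NC and 0.52, 0.6 and 0.38 in 23-Tet1 (difference from 23-Tet1 3.73 ± 0.14), and Rbp7 reached 3.11, 3.52 and 5.27 in 23-NC and 1.2, 4.3 and 0.64 in 23-Tet1 (3.6 ± 0.38). Neither population reached the 23-CATA levels. Of 27 oxidation genes the difference from 23-NC was positive in 14 and negative in 5 (against 23-Tet1 16 and 4), and of 51 respiratory genes in 5 and 6 (against 23-Tet1 19 and 1).

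Acta2 and Cryab fell in both other populations and not in 23-CATA. Acta2 fell in 23-NC from 78.5, 73.8 and 73.9 to 7.67, 8.87 and 7.19 FPKM and in 23-Tet1 from 33.4, 36.7 and 33 to 1.04, 2.93 and 0.83, while it was already low in 23-CATA at day 2, at 6.74, 6.39 and 5.85 (differences 3.54 ± 0.22 and 4.27 ± 0.22). Cryab, a small heat shock protein, stood at 57.6, 49.6 and 57.9 FPKM at day 2 and 6.41, 6.03 and 5.35 at day 4 in 23-NC against 7.15, 7.05 and 6.78 FPKM at day 2 and 11.2, 14.6 and 15.6 at day 4 in 23-CATA (3.99 ± 0.21). At day 0 the 23-CATA libraries had Acta2 at 316, 301 and 307 FPKM. Of 26 contractile and YAP genes 22 fell in 23-NC and 18 in 23-Tet1, against 12 in 23-CATA; the difference was positive for 14 and negative for 2 against 23-NC, and 14 and 6 against 23-Tet1. Of 16 heat shock chaperones the difference was positive for 4 and negative for 7 against 23-NC, and 5 and 6 against 23-Tet1.

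Several genes that fell in 23-CATA rose elsewhere. Retnla rose in 23-NC from 2.23, 1.87 and 1.02 to 80.3, 86.3 and 94.2 FPKM, and 23-CATA went from 95.3, 107 and 103 to 23.4, 28.4 and 24.1 (-6.91 ± 0.23). Vcam1 rose in 23-NC from 73.8, 72.5 and 72.2 to 178, 184 and 179.9 FPKM and in 23-Tet1 from 65.3, 61.8 and 63.6 to 198, 187 and 209 (-3.46 ± 0.07 and -3.8 ± 0.07). Lcn2 rose in 23-Tet1 from 18.6, 14.6 and 14.8 to 863, 767 and 848 FPKM (-6.65 ± 0.18), and remained below the 23-CATA day 4 level of 1601, 1588 and 1793. Myc rose in 23-NC from 49.5, 47.3 and 47.6 to 79, 78.5 and 75 FPKM and in 23-Tet1 from 27.8, 28.5 and 26.6 to 88.7, 75.6 and 84.6 (-2.1 ± 0.09 and -2.99 ± 0.09). All 31 ribosome biogenesis genes fell in 23-CATA, whereas 27 rose in 23-Tet1 and 2 fell, and in 23-NC 9 rose and 10 fell; the difference from 23-Tet1 was negative for 30 and positive for 0.

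Cell division also differed. Mitosis genes fell in 35 of 36 cases in 23-CATA, in 7 in 23-NC and in 9 in 23-Tet1, with 5 and 2 rising; the difference was negative for 28 and 25 genes and positive for 0 and 0. At day 2 Top2a was at 19.4, 18 and 22.9 FPKM in 23-CATA, 17.4, 17.8 and 16.1 in 23-NC and 14.8, 14.1 and 14.4 in 23-Tet1, and at day 4 at 6.42, 6.9 and 5.59 in 23-CATA, 19, 21.5 and 21.6 in 23-NC and 17.2, 15.8 and 16.2 in 23-Tet1, so that 23-CATA alone was lower at day 4. Interferon genes rose in 19 of 33 cases in 23-CATA and 28 in 23-Tet1 and fell in 23 in 23-NC; the difference from 23-NC was positive for 24 and negative for 1, and that from 23-Tet1 positive for 0 and negative for 19. Glucocorticoid-induced genes, which split 8 to 17 in 23-CATA, gave 11 up and 6 down in 23-NC and 17 and 7 in 23-Tet1. Ddit4, which fell in 23-CATA, was at 305, 294 and 306 FPKM at day 2 and 303, 302 and 333 at day 4 in 23-NC and at 299.9, 307 and 293 FPKM at day 2 and 228, 207 and 225 at day 4 in 23-Tet1 (differences -2.01 ± 0.11 and -1.53 ± 0.11).

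**Figure D5:**
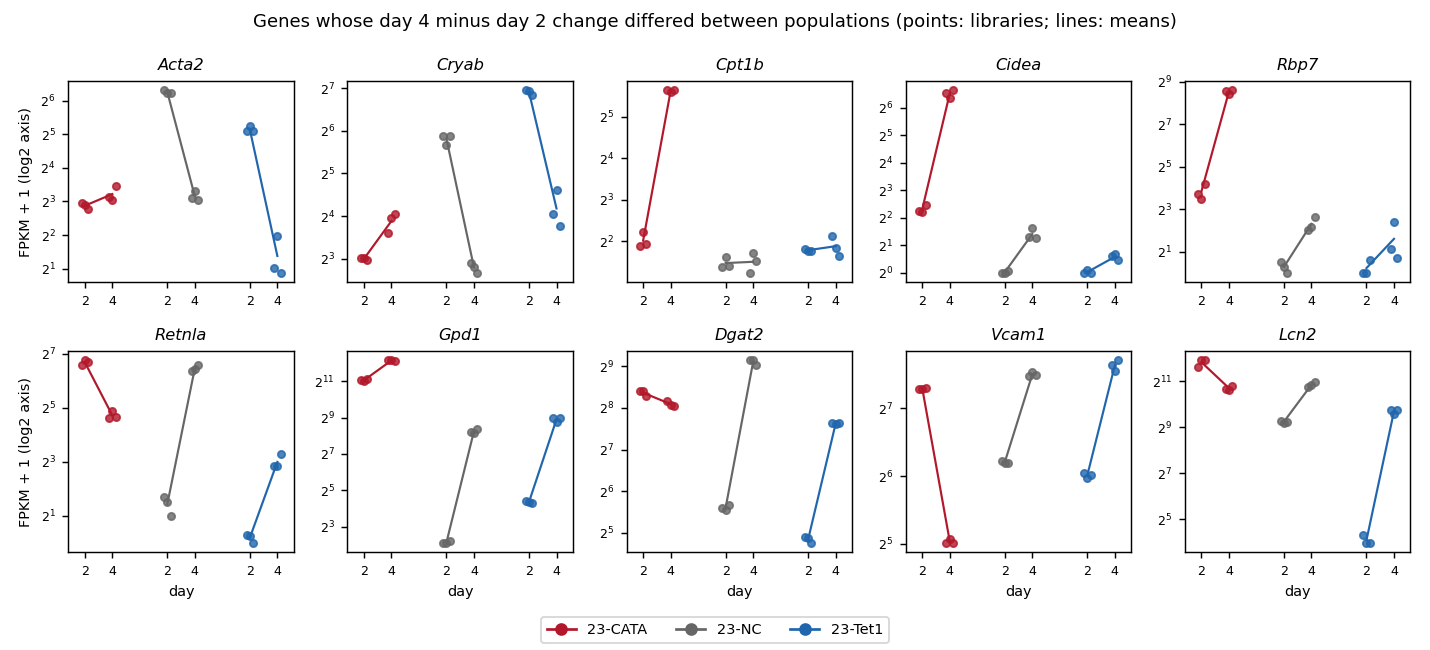
FPKM + 1 on a log2 axis at day 2 and day 4 for 10 genes in 23-CATA, 23-NC and 23-Tet1; points are libraries and lines join the means. Cpt1b, Cidea and Rbp7 are high at day 4 in 23-CATA alone, Acta2 and Cryab drop in the other two, and Retnla, Vcam1 and Lcn2 fall in 23-CATA while they rise in 23-NC and 23-Tet1.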

How the data were processed

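Gene expression was measured by RNA-seq of polyadenylated RNA in 36 libraries of 3 populations (4 sampling days, 3 libraries each); the 6 libraries of 23-CATA at days 2 and 4 are the subject here. The deposited values are FPKM (fragments mapped to a gene, scaled by transcript length and library size) for 24982 genes; per the submitters' processing notes STAR 2.4.1a, RSEM and mm10 were used. FPKM corrects for length and depth and carries no count, so no count model was run. Depth was estimated from the spacing of the lowest FPKM of genes with 1 transcript. Genes with at least 1 FPKM in 3 libraries (12231) entered limma 3.58.1 (R 4.3.3) as log2(FPKM + 1) values (a mean per group over 12 groups, eBayes with trend, residual degrees of freedom 24), with Benjamini-Hochberg adjustment over all genes tested and a threshold of 0.05. Differences between steps were tested as interactions. The fit was tested on simulated data. Transcript lengths are the longest exonic length in GENCODE M21; 98.9% of tested genes had one. Upstream sequences are from RefSeq (GRCm38.p6) and are set beside gene names, not coordinates, of the table.

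Alternatives were quantile normalisation, a pseudocount of 0.1, the 6 libraries fitted alone, median-ratio scaling, no filter, a replicate block, library weights and leaving out each library; removal of the length trend (loess per library) was chosen after seeing the data. Genes were named by rule: 13 fixed genes, the 15 largest rises and falls with groups apart and 5 FPKM in the higher group, up to 6 members each way and 3 uncalled members of each of 47 lists, and the 6 largest differences each way between steps. The comparison, the lists and the rule were chosen with earlier results of these data known, so counts over lists are descriptions. A few genes named by the rule are not reported here.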

Additional observations from a re-analysis of the deposited data

Results flagged for a closer look

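The changes from day 2 to day 4 differed between populations, by limma's test of the difference, for 6190 genes between 23-CATA and 23-NC and for 6581 between 23-CATA and 23-Tet1. Differences are in log2 units relative to the median gene, 23-CATA minus the other population, and each rests on populations that began day 2 at different levels.

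Against 23-NC the most positive differences were Cryab (3.99), Ghrh (3.99), Apoc1 (3.98), Cpt1b (3.69), Acta2 (3.54) and Depp1 (3.4). Apoc1, an apolipoprotein, went from 1.44, 2.86 and 2.76 to 21.1, 21.2 and 18.1 FPKM in 23-CATA and was at 0, 0.61 and 1.38 in 23-NC at day 4. Depp1, a target of FOXO factors, went from 4.82, 6.1 and 5.49 to 34.9, 39.8 and 31.9 FPKM in 23-CATA and stood at 50.7, 40.6 and 50.1 FPKM at day 2 and 30.4, 22.7 and 26.9 at day 4 in 23-NC, so that the populations differ less at day 4 than at day 2. The most negative were Retnla (-6.91), Gpd1 (-4.92), Hist1h1d (-3.97), Dgat2 (-3.67), Ceacam1 (-3.57) and Vcam1 (-3.46). The linker histone Hist1h1d was at 3.07, 3.13 and 2.34 FPKM in 23-CATA and 21.8, 25.7 and 19.6 in 23-NC at day 4; its call in 23-CATA alone ended with the length trend removed.

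Against 23-Tet1 the most positive were Acta2 (4.27), Cryab (3.73), Cidea (3.73), Cpt1b (3.61), Rbp7 (3.6) and Fmod (3.56). Fmod, the matrix proteoglycan fibromodulin, stayed at 21.6, 20.9 and 22 FPKM at day 4 in 23-CATA, where its small change was not called with median-ratio scaling, and dropped from 31.8, 36.6 and 36.9 to 1.24, 2.36 and 1.15 in 23-Tet1. The most negative were Lcn2 (-6.65), Retnla (-4.67), Spry1 (-4.62), C3 (-4.43), C4b (-4.32) and Serpina3n (-4.29). Complement C3 went from 471, 435 and 391 to 263, 272 and 263 FPKM in 23-CATA and from 108, 129.8 and 117 to 1749, 1598 and 1711 in 23-Tet1. The cause of these differences was not tested.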

How the results depend on the processing

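The total number of called genes stayed within 1.5 times the reported value for all 5 comparisons under every alternative run, but the split between directions did not hold. In 23-CATA 2447 genes rose and 5282 fell as reported, 3069 and 3879 with quantile normalisation, 3932 and 3312 with median-ratio scaling and 3816 and 3248 with the length trend removed, so the majority turned in the last 2. Differences from 23-NC were 2297 positive and 3893 negative as reported and 3343 and 2695 with median-ratio scaling, and those from 23-Tet1 2598 and 3983, then 3714 and 2913; both majorities turned with the length trend removed too. In 23-NC and 23-Tet1 alone the 2 directions came within 100 genes of each other in those 2 settings. For 23-CATA, 7729 genes were called as reported, 7733 with a pseudocount of 0.1, 7894 without the filter, 6948 with quantile normalisation, 7244 with median-ratio scaling, 6727 in the 6 libraries alone, 6058 with a replicate block, 8901 with library weights (a fit that stopped before full convergence, with weights of 0.166 to 25.8 over the 6 libraries) and 7064 with the length trend removed. Leaving out single libraries gave 6932 to 7603 for 23-CATA, the lowest without replicate 3 of day 4, 6055 to 6308 for 23-NC, 5330 to 5539 for 23-Tet1, 5693 to 6244 for the difference from 23-NC and 6085 to 6587 for that from 23-Tet1. Same-numbered libraries of 23-CATA did not deviate together (residual correlations 0.084, -0.362 and -0.132). With 3 libraries a group these values cannot decide whether the numbers pair libraries, which the labels do not state. Of the 13 fixed genes, Tet2, Tet3, Cebpa, Cebpb and Fabp4 each lost the call in 1 setting, as given with their values above. Limits are the 3 libraries a group, whose origin in separate cultures is not stated, the dependence of rises and falls on scaling, the trend with transcript length, and that no day 4 library used here was on the cocktail. Depth was estimated, not stated; genes under a few FPKM rest on few fragments.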

Other observations

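Where day 4 stood within the 4 sampling days differed among genes named above; these values carry no test. Adipoq was at 188, 181 and 189.6 FPKM at day 0 and 2102, 2165 and 2192 at day 6, and Thrsp at 0.36, 0.23 and 0.39 FPKM at day 0 and 51.2, 54.2 and 52.8 at day 6, so that both were highest at day 6. Gpd1 (3766, 3835 and 3852 at day 6), Insig1 (201, 199 and 193) and Fabp4 (48029.7, 49273 and 48385) were lower at day 6 than at day 4. Retnla, listed at 0 in all day 0 libraries, was at 2.6, 3.86 and 3.77 FPKM at day 6, far below its day 2 level of 95.3, 107 and 103. Vcan went from 19.2, 18.7 and 19.4 FPKM at day 0 up to 144, 126 and 142 at day 2 and back to 15.3, 14.5 and 15.8 at day 6. Klf5 was at 1.74, 2.3 and 1.32 FPKM at day 0 and 0.57, 1.23 and 1.26 at day 6, and Ddit4 at 59.5, 62.6 and 60.4 FPKM at day 0 and 34.3, 32 and 32.7 at day 6: for these 3 genes day 2 was the high point. Mcm5 was at 17.4, 17.5 and 17.6 FPKM at day 0 and at 6.14, 5.95 and 6.94 at day 6, above its day 4 level in every library. Acta2, at 316, 301 and 307 FPKM at day 0, was at 21.8, 25.4 and 24.8 at day 6.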
